A study of Homo sapiens with 2 samples.

Results

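Matricellular proteins are secreted into the extracellular matrix, where they bind receptors, growth factors and other matrix proteins. They alter how cells attach and respond to signals, and most carry little load themselves. The family members examined here were the thrombospondins THBS1, THBS2 and THBS3, the tenascin TNC, SPARC, the paired CCN proteins CCN1 and CCN2, the matrix Gla protein MGP and the TGF-beta induced protein TGFBI, together with fibronectin, FN1, the structural glycoprotein that many of them bind. These 10 genes of 19775 were chosen by name, with earlier results of these arrays known, and all probe sets that the platform annotation gives to them alone were taken, which were 27 of 54613.

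QGP1 is an established human cell line from a pancreatic neuroendocrine tumour. The ALDH high group held QGP1 cells collected by fluorescence-activated cell sorting for strong aldehyde dehydrogenase activity, which is often used as a handle on tumour cells with stem-like properties. The control group held QGP1 cells labelled only as control, and the labels do not say if they were sorted as well. Each group had 1 Affymetrix array, so the differences below are between 2 arrays, have no replicate check and no test, and measure the ALDH high minus the control level on the log2 scale of the RMA summary. The spread that can be given is that between probe sets of the same gene, whose differences had a pooled SD of 0.23 over 10523 genes, and it leaves out the variation between cultures, sorts and labelling reactions.

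The thrombospondin THBS1 and the tenascin TNC were over 2-fold higher in ALDH high cells, and MGP and CCN2 were over 2-fold lower. CCN1, the closest relative of CCN2 in the set, lay in the opposite direction from it, just short of 2-fold. TGFBI was just short of 2-fold lower. THBS2, THBS3, SPARC and FN1 differed by less than 1.5-fold on their main probe sets. Of all genes, 1.69% were over 2-fold in either direction, 0.465% higher and 1.23% lower. Since the members were chosen with these differences known, nothing is read from their share of 4 in 10.

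**Figure D1:**
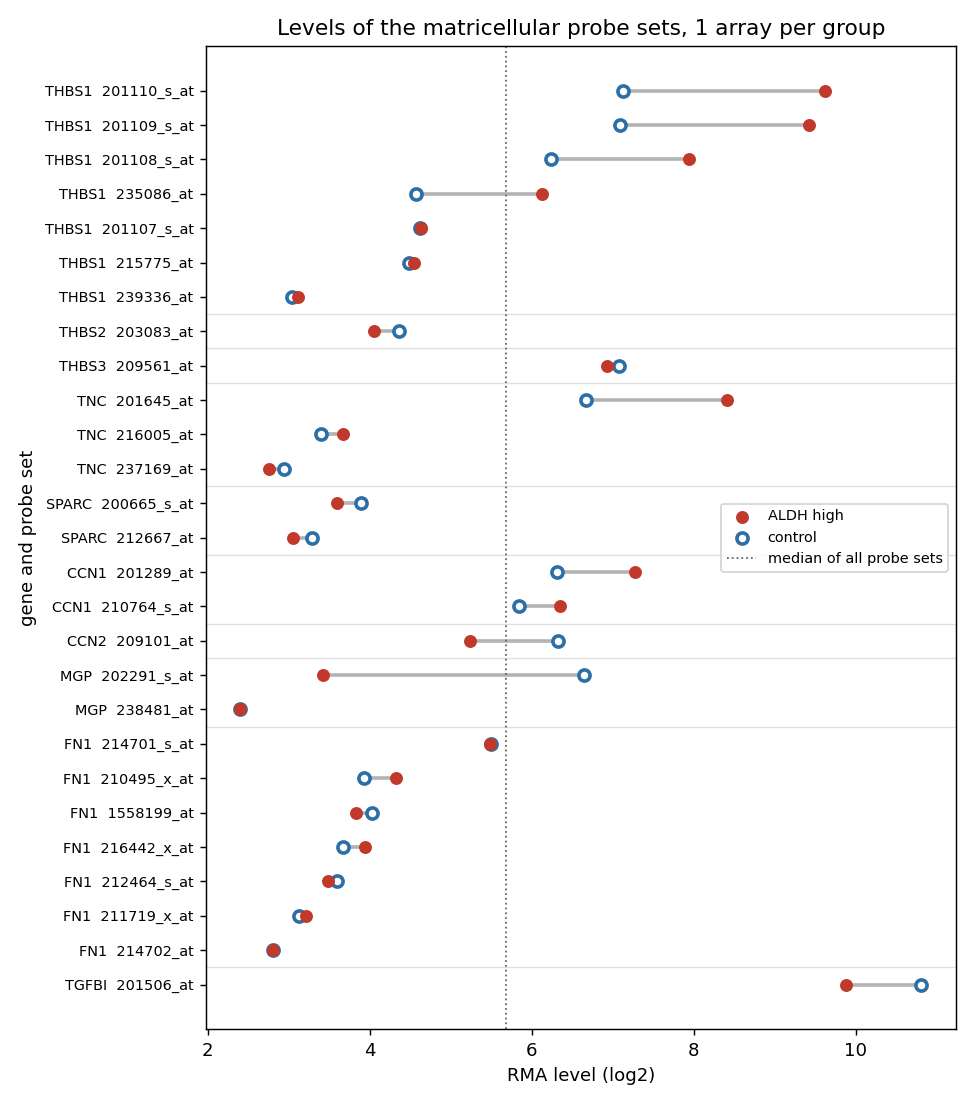
RMA levels (log2, x axis) of the 27 probe sets of the 10 genes (y axis), with filled red points for the ALDH high array, open blue points for the control array, and a dotted line at the median of all probe sets. The 4 brightest THBS1 probe sets and the brightest TNC probe set lie to the right in ALDH high, 1 MGP probe set lies far to the left, and the probe sets that are dim on both arrays hardly separate.

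Promoters are shown for the 3 genes over 2-fold that have an entry in the RefSeq table of build GRCh38.p14, which are the most strongly higher member, the tenascin and the lower CCN gene, to show which of 3 known response motifs lie in front of genes that differed in opposite directions. Entries matched 8 of the 10 genes, all but CCN1 and MGP. Each run is the 250 bases before the annotated start of the gene, written 5′ to 3′ on the strand of the gene. Capitals mark matches to GGAATG, the core motif of the TEAD factors, TGANTCA, that of AP-1, or CAGACA, a form of the SMAD motif, on either strand. The shorter SMAD form CAGAC was not searched for, and it is present unmarked in the THBS1 and CCN2 runs. No matches overlapped in these runs.
THBS1 (chr15:39580829-39581078, plus strand): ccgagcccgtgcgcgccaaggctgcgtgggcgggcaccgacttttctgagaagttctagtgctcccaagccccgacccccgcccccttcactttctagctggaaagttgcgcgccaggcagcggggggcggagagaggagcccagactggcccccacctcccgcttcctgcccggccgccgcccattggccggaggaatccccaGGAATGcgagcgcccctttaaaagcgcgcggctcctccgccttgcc
TNC (chr9:115118158-115118407, minus strand): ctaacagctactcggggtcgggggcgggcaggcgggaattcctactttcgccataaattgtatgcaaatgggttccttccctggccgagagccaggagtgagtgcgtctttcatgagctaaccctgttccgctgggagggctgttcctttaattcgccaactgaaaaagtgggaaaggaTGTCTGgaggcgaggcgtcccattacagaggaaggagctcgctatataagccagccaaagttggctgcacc
CCN2 (chr6:131951373-131951622, minus strand): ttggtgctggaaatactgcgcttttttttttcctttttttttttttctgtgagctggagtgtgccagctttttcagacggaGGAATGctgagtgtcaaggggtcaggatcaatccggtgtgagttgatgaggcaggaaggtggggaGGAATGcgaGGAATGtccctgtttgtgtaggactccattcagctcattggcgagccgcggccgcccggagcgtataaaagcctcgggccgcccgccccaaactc

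The CCN2 run held GGAATG 3 times, beginning 169, 104 and 95 bases before the start, and the THBS1 run held it once, beginning 46 bases before. The TNC run held the opposite-strand form of CAGACA once, beginning 71 bases before the start. Over 35116 promoter runs of this length, 11.9% held GGAATG on either strand, 13.6% held CAGACA and 6.57% held TGANTCA. Among the other members, THBS2 held GGAATG 2 times and CAGACA 2 times and SPARC held GGAATG once, while the runs of THBS3, FN1 and TGFBI held none of the motifs. TGANTCA was in no member's run. These matches describe the sequence, and the higher THBS1 and the lower CCN2 both had the TEAD letters in this window.

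THBS1 encodes thrombospondin-1, a matrix glycoprotein that binds CD36 and CD47 and can activate latent TGF-beta. Its main probe set, 201110_s_at, had a level of 9.62 in ALDH high cells and 7.12 in control cells, a 5.66-fold higher level and the seventh largest positive difference of all genes. The probe set 201109_s_at had 9.42 in ALDH high and 7.09 in control cells (5.06-fold). All THBS1 probe sets had the higher value on the ALDH high array, by very different amounts. Probe set 201108_s_at had 7.95 in ALDH high and 6.24 in control cells (3.26-fold), and 235086_at had 6.12 in ALDH high and 4.57 in control cells (2.93-fold). These 4 probe sets, grouped because they were over 2-fold, averaged a difference of 2.02 ± 0.47. The SD is over probe sets of the same arrays, which are not replicates. The other 3 had levels from 3.05 to 4.63 on the arrays and differences from 0.02 to 0.07. Over all 7 probe sets the average was 1.18 ± 1.11. The difference was over 2-fold on the 4 probe sets whose ALDH high level lay above that array's median of 5.68. It was near 0 on the 3 with both levels below the median. The ALDH high level is itself part of the difference, and 235086_at lay above the median on that array only. This describes the probe sets and is not evidence about THBS1. Of the 4, only 235086_at has an ID without the _s_at or _x_at ending that marks probe sets able to bind more than 1 transcript.

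The other thrombospondins lay slightly in the opposite direction. THBS2, which shares the domain layout of THBS1, had 4.05 in ALDH high and 4.37 in control cells, 1.25-fold lower on its single probe set. THBS3, of the other thrombospondin subgroup, had 6.93 in ALDH high and 7.07 in control cells, 1.11-fold lower. The THBS3 level was above the array median in both groups. THBS2 was dim on both arrays, at the 22.8th percentile of the ALDH high array and the 27.4th of the control array. Without detection calls in the deposited table, a dim level cannot be told from absence.

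TNC, tenascin-C, is a large matrix glycoprotein of development and wound repair that binds integrins and fibronectin. Its main probe set, 201645_at, had 8.41 in ALDH high and 6.67 in control cells, a 3.32-fold higher level and the 20th largest positive difference of all genes. Its other probe sets were dim on both arrays and had no common direction. Probe set 216005_at had 3.67 in ALDH high and 3.40 in control cells, and 237169_at had 2.76 in ALDH high and 2.94 in control cells. TNC therefore rested on 1 of 3 probe sets, and with their mean (0.61) or median (0.27) as the gene's value it was not over 2-fold.

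The CCN proteins are secreted, cysteine-rich integrin and heparan sulphate ligands, and CCN1 and CCN2, also known as CYR61 and CTGF, are widely used as readouts of the coactivators YAP and TAZ. CCN1 had 7.27 in ALDH high and 6.31 in control cells on its main probe set, 1.95-fold higher, which was just outside the threshold. Its second probe set had 6.35 in ALDH high and 5.84 in control cells (1.42-fold). Both CCN1 probe sets were above the array median in both groups and pointed the same way. CCN2 had 5.24 in ALDH high and 6.33 in control cells on its only probe set, 2.13-fold lower, which was just inside the threshold. With a pseudocount of 32 on the linear scale, which damps dim values, the CCN2 difference was -0.69 and no longer over 2-fold. The difference ranked 107th from the highest of all genes for CCN1 and 191st from the lowest for CCN2.

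MGP, a small vitamin K dependent protein that inhibits calcification of vessels and cartilage, had the largest difference among the members. Probe set 202291_s_at had 3.42 in ALDH high and 6.65 in control cells, a 9.36-fold lower level and the seventh largest negative difference of all genes. On the control array this level stood at the 63.7th percentile, and on the ALDH high array at the 14.5th. The size of the fold therefore rests on a dim ALDH high level, and with the pseudocount the difference was -1.63. The second probe set, 238481_at, had 2.40 on both arrays, at the 2.37th percentile in ALDH high and the 2.23rd in control cells. Left with that probe set alone, since the first carries the _s_at ending, MGP had a difference of 0.

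TGFBI, a secreted protein induced by TGF-beta that binds collagens and integrins, had 9.88 in ALDH high and 10.81 in control cells on its only probe set. This 1.91-fold lower level was just outside the threshold and ranked 295th from the lowest of all genes. The TGFBI probe set was bright, at percentile 91.6 of the ALDH high array and 95.8 of the control array. Its difference was -0.94, and -0.91 with the pseudocount.

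FN1 and SPARC, both products of matrix-making cells, were below the array median in both groups on all their probe sets. The 7 FN1 probe sets had levels from 2.80 to 5.50 over both arrays and differences from -0.19 to 0.39, of which 3 were positive, 3 negative and 1 was 0. The main FN1 probe set had 5.48 in ALDH high and 5.50 in control cells, at percentile 46.5 of the ALDH high array and 46.9 of the control array. SPARC, a collagen-binding protein also called osteonectin, had 3.59 in ALDH high and 3.90 in control cells on its main probe set, and 3.05 in ALDH high and 3.29 in control cells on the other. The brighter SPARC probe set stood at percentile 16.8 of the ALDH high array and 20.6 of the control array. No difference over 2-fold was seen for either gene.

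**Figure D2:**
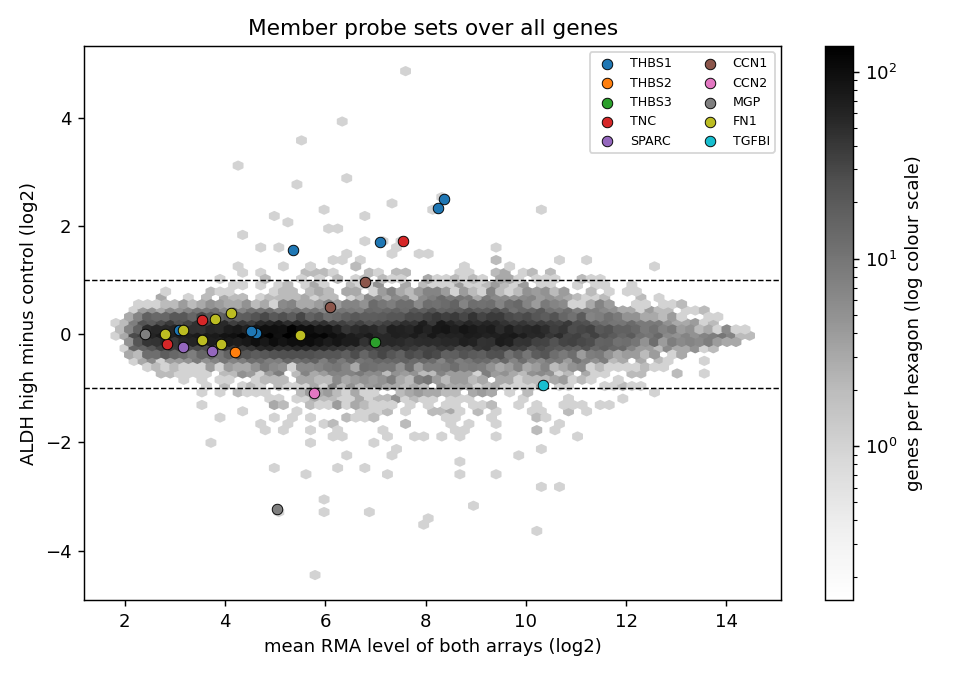
Difference between the arrays (log2, ALDH high minus control, y axis) against the mean level of both arrays (log2, x axis) for the 27 member probe sets (coloured by gene) over the 19775 genes (grey hexagons, darker for more genes), with dashed lines at 2-fold. The member points are close to 0 at the dim end, and the 7 probe sets beyond 2-fold are 4 of THBS1 and 1 each of TNC, CCN2 and MGP.

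Across the members, large differences were found only among probe sets that were bright in at least 1 group. Of 8 probe sets at or above the array median on both arrays, 6 were higher in ALDH high cells, 4 of them over 2-fold, and 2 were lower. Those higher belonged only to THBS1, CCN1 and TNC, and those over 2-fold only to THBS1 and TNC, so they are not separate members. Of all 27 member probe sets, 5 exceeded 2-fold upwards and 2 downwards in ALDH high cells, beside 0.403% and 0.842% of all probe sets and 1.25% in either direction. The 3 that crossed the median, 235086_at of THBS1 and the probe sets of CCN2 and MGP with a difference, were all over 2-fold. The 16 below the median on both arrays had differences from -0.32 to 0.39. For 11 of those 16 the size of the difference recurred, to 6 decimals, in 20 or more probe sets of the table. The feature was seen in 29.5% of all probe sets of any level, and the share among dim ones alone was not taken. No probe set with it was over 2-fold. Brightness in 1 group is part of what a large difference is, so this describes where the members could show a change and is not evidence about them.

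The differences closest to those of the 3 largest members were found among genes whose higher level reached the median of all probe sets. With 2 arrays the pattern of a gene is a single difference, so closeness means only a similar fold. HINT3 (2.44), PHLDB2 (2.36) and S100A2 (2.25) were nearest to THBS1 (2.50). LAMB3 (1.74), ALDH1A3 (1.77) and ZBED2 (1.61) were nearest to TNC (1.73). SPX (-3.21), CP (-3.29) and LINC02806 (-3.32) were nearest to MGP (-3.23).

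Most related genes were near level, and those over 2-fold were lower in ALDH high cells. Among all genes, too, more were over 2-fold lower (1.23%) than higher (0.465%). Of 20 measured genes of the same families or of matricellular type, none was over 2-fold higher and 2 were over 2-fold lower, and their median difference was -0.08, beside -0.01 over all genes and -0.22 over the 10 members. SMOC1, a SPARC relative that antagonises BMP signalling, had 8.53 in ALDH high and 10.04 in control cells, 2.86-fold lower, and its second probe set was 3.11-fold lower. SPOCK1, a proteoglycan of the SPARC family, had 8.69 in ALDH high and 10.08 in control cells, 2.62-fold lower on its only probe set. Both were well above the array median, unlike SPARC itself. In all, 4 of the 20 lay above 0, 14 below 0 and 2 were equal on both arrays, while 45.6% of all genes lay above 0. Of the 20, 10 were at or above the array median in both groups, beside 12202 of all 19775 genes. Dim levels limit what the rest could show.

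Receptors and co-receptors of these proteins were mostly level between the arrays. Of 19 measured, 3 were over 2-fold lower and none higher, beside 1.23% and 0.465% of all genes, and the median was -0.08. Each of the 3 was only just over 2-fold. PTPRZ1, a receptor phosphatase that binds tenascins, was 2.05-fold lower (7.41 in ALDH high and 8.44 in control cells). CD36, a scavenger receptor that binds thrombospondins, was 2.03-fold lower (5.66 in ALDH high and 6.68 in control cells), with all 5 probe sets below 0, from -1.02 to -0.15. ITGB5, the integrin chain that pairs with ITGAV, was 2.01-fold lower (8.02 in ALDH high and 9.02 in control cells), with its 4 probe sets from -1.01 to -0.49. Taken as the mean or the median over their probe sets, CD36 and ITGB5 were not over 2-fold, and with the pseudocount none of the 3 was (PTPRZ1 -0.91, CD36 -0.70, ITGB5 -0.93). The main probe sets of CD36 and ITGB5 carry the _s_at ending. Without probe sets of the _s_at or _x_at ending, ITGB5 had -0.89. CD36 then had -0.16 at a dim level (4.30 in ALDH high and 4.46 in control cells). The thrombospondin receptor CD47, named after its value was seen because it is the partner of THBS1, differed by -0.10.

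**Figure D3:**
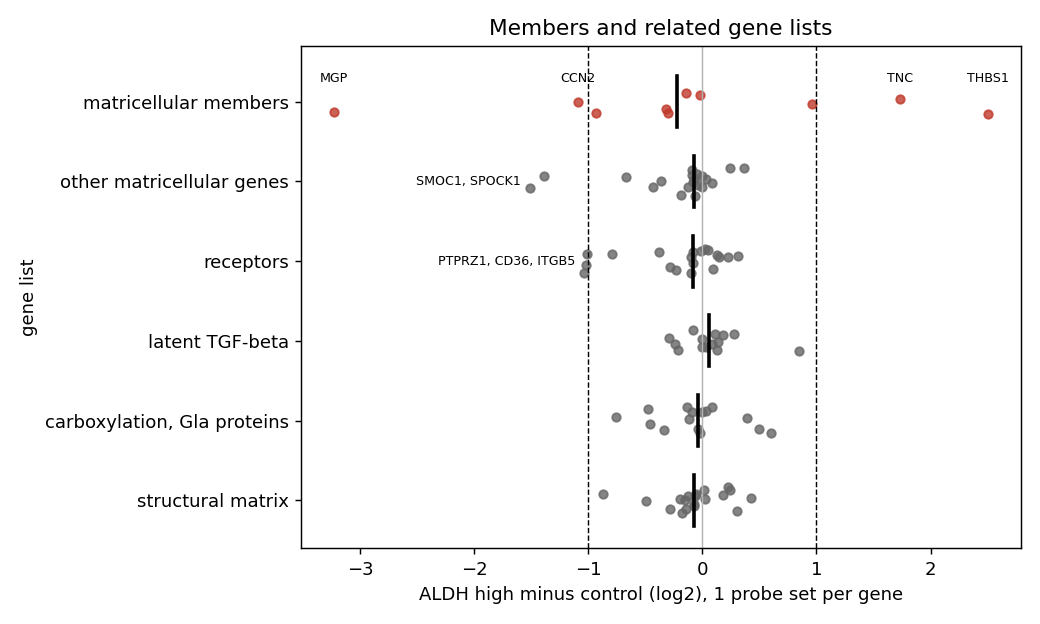
Differences (log2, ALDH high minus control, x axis) of 1 probe set per gene for the 10 members (red) and 5 lists of related genes (grey), with a bar at each list's median and dashed lines at 2-fold. The members spread from -3.23 to 2.50, and the related genes lie between -1.51 and 0.85. Since the members were chosen with these differences known, nothing is read from their wider spread.

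The enzymes and ligands around the members held no gene over 2-fold. For the counts below, 45.6% of all genes lay above 0. Of 14 genes of latent TGF-beta and its processing, 8 lay above 0 and the median was 0.06. TGFB3 was 1.80-fold higher (9.15 in ALDH high and 8.31 in control cells), with a dim second probe set at 0.03. FURIN, the protease that cuts the TGF-beta precursor, was 1.23-fold lower. Of 15 genes of vitamin K dependent carboxylation, the modification that MGP carries, 5 lay above 0 and the median was -0.04. PROS1, the Gla protein S, was 1.69-fold lower, and the clotting factor F10 was 1.51-fold higher at a dim level (4.27 in ALDH high and 3.67 in control cells). Of 19 structural matrix genes, 7 lay above 0 and the median was -0.07. Only 6 of the 19 were at or above the array median in both groups, so dim levels limit this list too. The collagen chain COL6A1 was 1.83-fold lower on its main probe set, with a median over its 8 probe sets of -0.11. COL4A2 was 1.41-fold lower at a dim level on its main probe set, and its second probe set had a difference of 0.18.

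The identity of the cells was checked on marker lists, since matricellular proteins are made by stromal cells in many tissues. On their main probe sets, 12202 of all 19775 genes were at or above the array median in both groups. That median is over all probe sets, and a gene's main probe set is its brightest. All 8 epithelial markers and all 8 neuroendocrine markers were at or above it in both groups, and none of these markers was over 2-fold different. The largest differences were those of the keratin KRT19 (1.51-fold higher in ALDH high on its main probe set and -0.08 on the log2 scale on the other), the claudin CLDN7 (1.22-fold lower), the dopa decarboxylase DDC (1.60-fold higher) and the transcription factor INSM1 (1.27-fold higher). Of 10 fibroblast and stellate cell markers, 3 were at or above the median in both groups and none was over 2-fold different. The summed linear level of the 10 was 438 in ALDH high and 492 in control cells. COL1A1, the brightest of them (7.46 in ALDH high and 7.74 in control cells), weighs most in that sum. Its 5 probe sets had differences from -0.72 to 0.08. FAP (1.35-fold) and ACTA2 (1.34-fold) were lower in ALDH high cells by the most in that list on their main probe sets. The other ACTA2 probe sets had differences of 0 and -0.09. The values were 2 of 10 with a summed level of 356 in ALDH high and 343 in control cells for endothelial markers, among which ESAM was 1.30-fold higher in ALDH high cells and ROBO4 differed by 0.37 on its main probe set and by -0.26 on the other. For leukocyte markers they were 1 of 8 with a summed level of 254 in ALDH high and 2 of 8 with 315 in control cells. Among the leukocyte markers LYZ (2.52-fold) and CD14 (2.03-fold) were lower in ALDH high cells, with levels from 4.30 to 5.67. With the pseudocount neither was over 2-fold (LYZ -0.67, CD14 -0.48), and LYZ had -0.88 averaged over both probe sets and -0.42 without the shared-target one. The medians of the 5 marker lists lay between -0.16 and -0.01. RMA gives no level of 0, so no marker was listed as absent. Their part in the member differences was not tested, and in such bulk RNA fewer cells making a transcript and less of it per cell cannot be told apart.

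**Figure D4:**
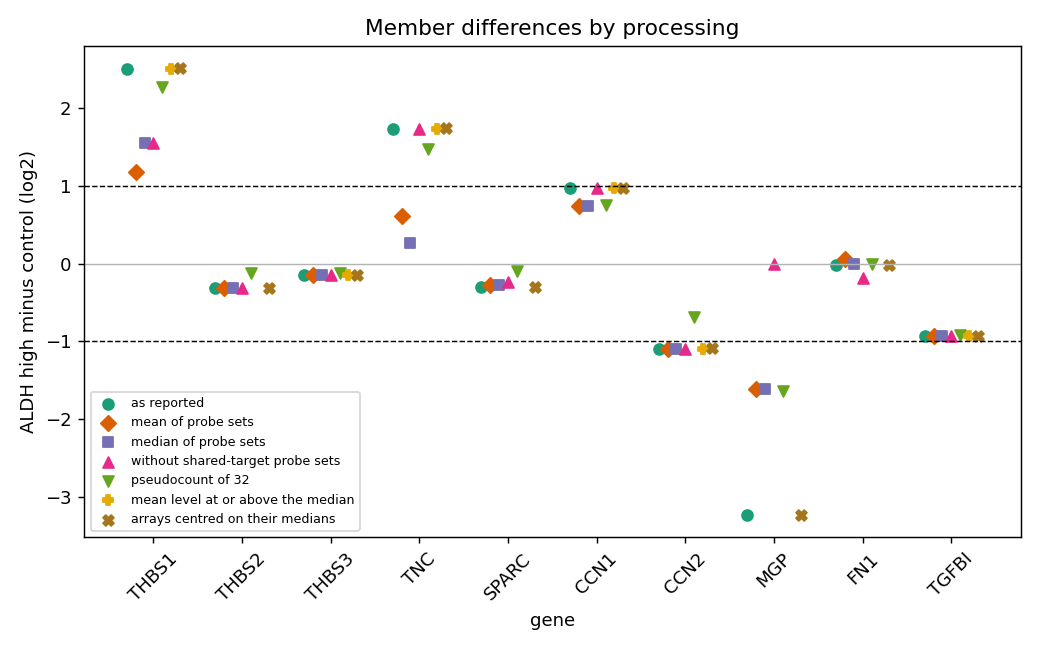
Differences (log2, ALDH high minus control, y axis) of the 10 members (x axis) as reported and under 6 other ways of processing (symbols), with dashed lines at 2-fold. THBS1 stays above 2-fold under each of them, TNC drops below it when its probe sets are averaged or their median is taken, CCN2 with the pseudocount, and MGP goes to 0 without shared-target probe sets.

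THBS1 was the only member over 2-fold under every way of processing that could give it a value, between 1.18 and 2.51. MGP had no value when genes were required to have a mean level at or above the median, a filter that left 6 of the 10 members.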

How the data were processed

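The authors deposited log2 levels per probe set. Per the submitters' processing notes they used RMA, which corrects background, quantile-normalises arrays to each other and summarises probes by median polish, so a shift common to most genes would be removed. Neither the RMA version nor a genome build was given in the sources used here. The array medians were 5.68 (ALDH high) and 5.69 (control). Of 54675 probe sets, 62 Affymetrix controls were left out. Symbols came from GEO's platform annotation, and 41043 of 41097 single symbols matched RefSeq by Entrez ID. The main probe set of a gene was the one brightest on average over the arrays, and over 2-fold, the threshold of the series description, was counted without a filter or test.

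The 11 gene lists, the members being one of them (143 genes in all, 138 measured), and the rule for named genes were chosen with earlier results of these data known. The rule names all members, up to 4 others per list over 2-fold and at least the 2 largest, and the 3 nearest differences to THBS1, TNC and MGP. Tested on simulated data of 19775 genes with noise of SD 0.23, the 2-fold count recovered 100% of 50 genes lowered 3-fold and 96% of 50 raised 3-fold. The simulated noise was equal at all levels and left out variation between cultures, sorts and labelling reactions. The recovery thus checks the counting and not how reliable a 2-fold difference between these arrays is. Python 3.11.15, pandas 2.3.3 and numpy 2.4.6 were used. The number of arrays limits the precision.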

Additional observations from a re-analysis of the deposited data

How the results depend on the processing

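The count of members over 2-fold higher was 2 as reported and 1 with the mean or the median of the probe sets of a gene, where TNC was lost. The count over 2-fold lower was 2 as reported and 1 without shared-target probe sets (MGP lost), 1 with a pseudocount of 32 (CCN2 lost), 1 over genes with a mean level at or above the median (MGP left out) and 1 at a threshold of 3-fold. The median over the members was -0.22 as reported and 0.41 over the 6 genes left by that filter, which leaves out THBS2, SPARC, FN1 and MGP. MGP misses it through its ALDH high level alone, so its own difference decides this. The other list medians moved by less than the pooled SD of 0.23 under all alternatives. That SD is of single probe set differences and is wide for medians that lay between -0.16 and 0.06 as reported. Without shared-target probe sets, the fibroblast median went from -0.09 to 0.03 and the epithelial median from -0.04 to 0.04. Of 56 member differences under alternatives, 42 moved by less than that SD and 14 by more, and no difference over 2-fold changed sign. Many of the 42 could hardly move, so their number does not measure robustness. Centring shifts all genes alike, and the level filter keeps a gene's value as it was. A gene with 1 probe set has the same mean, median and main value. Leaving out shared-target probe sets changes nothing where the main probe set is not one. No paired analysis was possible because each group had a single array. Dim levels limit what SPARC, THBS2 and the second MGP probe set could show.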
